A study of Caenorhabditis elegans with 27 samples.

Results

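Antibacterial factor (abf) genes and chitinase (cht) genes of Caenorhabditis elegans are described here across age, experiment and dose of a humic substance. The 6 genes abf-1, abf-2, abf-3, abf-5, cht-1 and cht-3 were taken by symbol, and 7 of 22548 probe sets are annotated to them, 2 of these to cht-1. Worms of strain GE24 with the allele pha-1(e2123) had been kept with HuminFeed-Hydroquinone (HF-HQ) or HuminFeed (HF) at 0, 0.2 or 2.0 mM dissolved organic carbon. HF-HQ worms were harvested at 3 days, and HF worms at 11 days in one experiment and at 3 days in another. Each experiment had its own untreated worms, which made 9 groups of 3 arrays. All groups carry the allele, which is known to be lethal to embryos at high temperature. According to the labels, larvae were raised at 25 °C after a start at 15 °C, 15000 larvae were spread over 3 plates, and whole worms were used. The design calls the worms adults, while the age tag of all 27 arrays names the fourth larval stage. The labels do not say whether the 3 arrays of a group came from independent populations, so errors below measure the spread between arrays.

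The abf genes encode small cysteine-rich secreted peptides that resemble an antibacterial peptide first found in the roundworm Ascaris. ABF-2 kills bacteria and yeast in the test tube, and in the worm these peptides are counted among the innate defences of pharynx and intestine. Chitinases cleave chitin, a polymer that the worm lays down in its eggshell and in the lining of the pharynx, and that also occurs in fungal cell walls. The genes abf-1 and abf-2 are neighbours on chromosome I, abf-3 lies on chromosome V, abf-5 and cht-1 lie on chromosome X and cht-3 lies on chromosome IV.

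The genes were chosen by their measured log2 levels in the 9 groups and by their differences with age, between untreated worms and by dose. Values of these comparisons are therefore descriptions and are given without p-values. How many member probe sets passed the adjusted threshold of the fit is stated beside the share of all probe sets that passed, and nothing is read from it. Levels are log2 values per probe set as the authors deposited them. The filter asked for 3 or more of the 27 arrays above log2 5, and 11102 probe sets passed, among them 5 probe sets of 4 member genes. Those of abf-1 and abf-3 did not pass on any array. The probe set of abf-5 passed only through the 9 HF-HQ arrays, those of cht-1 through the 9 HF-HQ and 9 HF 11-day arrays, and that of abf-2 through 6 HF-HQ and 9 HF 11-day arrays. Only cht-3 was over 5 on all 27 arrays. That groups of arrays did not overlap is only described, since this held for 83.7% of all tested probe sets with age. Such a share is not given for the other comparisons. A lack of overlap there cannot be set against that of all probe sets and does not mark out the members.

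The deposited values of the 3 experiments had different distributions. The upper quartile of an array was 9.28 to 9.39 with HF-HQ, 7.35 to 7.42 in 11-day HF worms and 7.45 to 7.53 in 3-day HF worms, so the arrays were probably not normalized together. Differences between experiments are thus also given after quantile normalization of all 27 arrays, and levels also as percentile ranks among the 22548 probe sets of an array. Correlations within groups over the tested probe sets were 0.987 to 0.999. Of the marker genes, all 11 of the intestine and all 12 of oocytes and embryos were over log2 5 on some array, and all 12 oocyte and embryo markers on every array. Pharynx markers were weak: 0 of 12 were over log2 5 on all arrays of any HF group, against 5 of 12 in each HF-HQ group, and ceh-22 and marg-1 were over it nowhere.

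**Figure D1:**
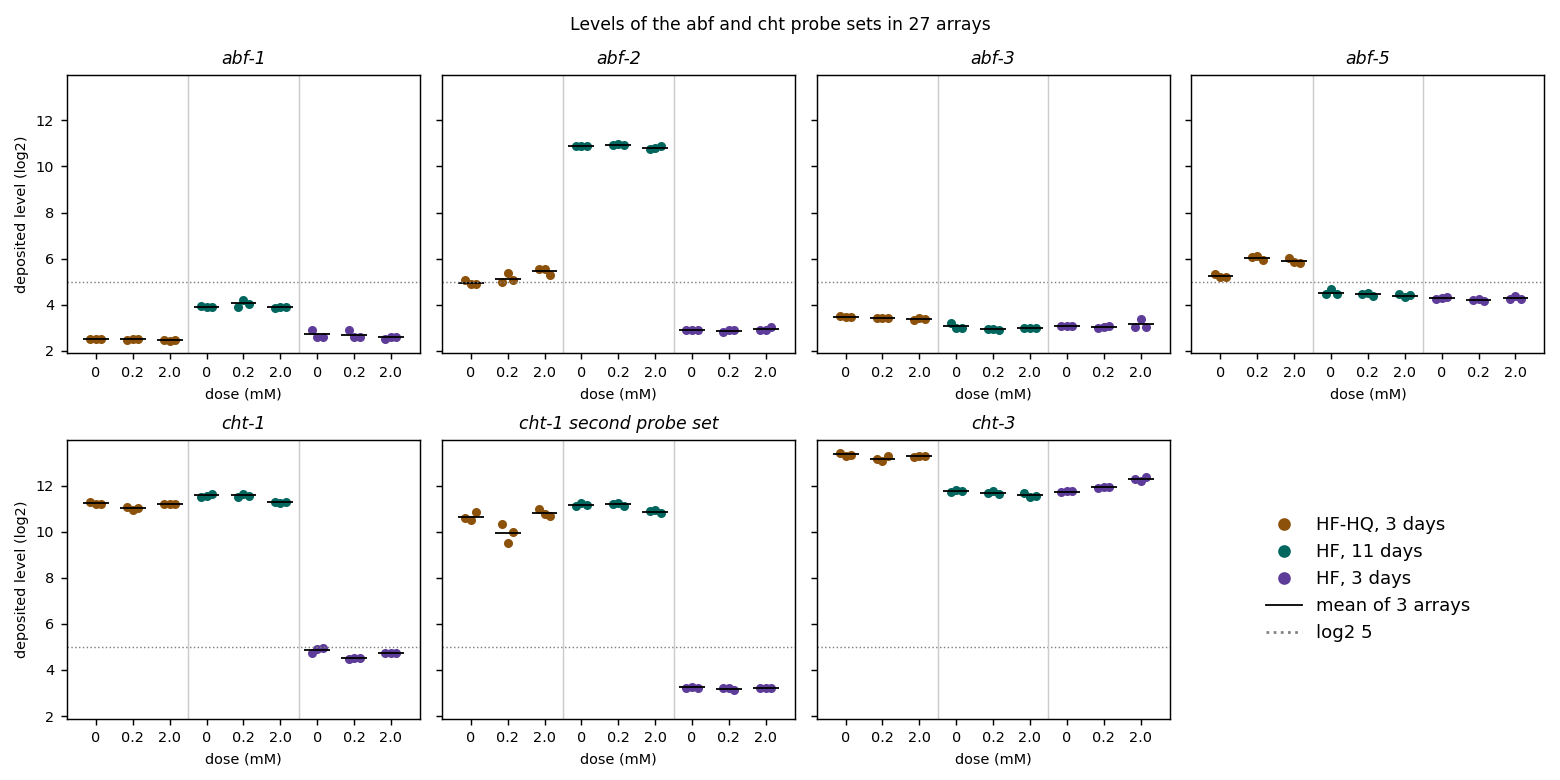
Deposited log2 level of each member probe set in all 27 arrays, by dose in mM (x axis), for HF-HQ at 3 days, HF at 11 days and HF at 3 days. Points are single arrays, horizontal lines are means of 3 arrays and the dotted line is log2 5. The probe set of abf-2 lies at 10.76 to 10.96 only in the 9 HF 11-day arrays, both probe sets of cht-1 are low only in the 9 HF 3-day arrays, and cht-3 lies between 11.52 and 13.44 on all arrays.

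Between untreated worms of the HF experiments, abf-2 lay far higher at 11 days than at 3 days. Its log2 levels were 10.90, 10.87 and 10.87 in 11-day worms, against 2.90, 2.90 and 2.89 in 3-day worms. The groups lay far apart, and each was tight. The log2 difference was 7.98 ± 0.08 (11 minus 3 days, SE, n = 3 each), a ratio of 253, and 8.78 ± 0.07 after quantile normalization. In absolute size it ranked 1 of 11102 on both scales. The second probe set of cht-1 ranked 2 with 7.94 ± 0.13, so the order of these probe sets lies within their errors. The percentile of abf-2 within an array averaged 97.5 at 11 days, against 43.1 at 3 days. The lower level is near the floor of the scale, and the size of such a difference depends on how GCRMA, the authors' processing, treats values there. By its type, the only probe set of abf-2 may bind several transcripts.

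The chitinase gene cht-1 differed between the ages in the same direction. Its leading probe set had log2 levels of 11.52, 11.57 and 11.64 in untreated 11-day worms, against 4.74, 4.91 and 4.94 in untreated 3-day worms. Its second probe set had 11.13, 11.23 and 11.17 at 11 days, against 3.23, 3.27 and 3.23 at 3 days. Neither probe set overlapped between the ages. By their types, the leading one may also bind transcripts of other genes, and the second may bind several transcripts. The differences were 6.71 ± 0.05 and 7.94 ± 0.13, which ranked 13 and 2 of 11102 in size, and 7.16 and 8.70 after quantile normalization.

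The other members differed far less with age as deposited, or lay below the filter. The peptide gene abf-5 had 4.45, 4.66 and 4.45 in untreated 11-day worms, against 4.26, 4.27 and 4.33 in untreated 3-day worms. These values did not overlap and differed by 0.23 ± 0.07 (SE, n = 3 each), or by 0.51 ± 0.07 after quantile normalization. As deposited, all were below log2 5. The gene abf-1, the neighbour of abf-2, had 3.92, 3.91 and 3.91 at 11 days, against 2.90, 2.61 and 2.61 at 3 days. It was thus higher at 11 days by 1.21 while staying under the filter, at percentile 54.4 against 37.7. After quantile normalization its means were 4.43 at 11 days and 2.74 at 3 days. For abf-3 the values overlapped, with 3.22, 2.97 and 2.97 at 11 days and 3.07, 3.06 and 3.09 at 3 days. The second chitinase gene, cht-3, had 11.74, 11.82 and 11.77 at 11 days, against 11.72, 11.76 and 11.76 at 3 days. Its difference was 0.03 ± 0.06 as deposited and 0.58 ± 0.06 after quantile normalization, so whether cht-3 differed with age depended on the scaling.

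Limma called 4 of the 5 tested member probe sets with age, all higher at 11 days, where it called 79.1% of all tested probe sets in either direction and 27.9% as higher. Since the members were chosen with this comparison known, the count is a description only. The call for abf-5 was lost without array 2 of the 11-day controls, with a difference of 0.16 ± 0.07. Of all calls 35.3% were higher at 11 days as deposited, and 53.2% after quantile normalization. The member groups that did not overlap were those of 4 tested probe sets, where 83.7% of all tested probe sets did not overlap.

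In untreated 3-day worms, cht-1 also separated the experiments. Its leading probe set had log2 levels of 11.31, 11.22 and 11.21 in HF-HQ controls, against 4.74, 4.91 and 4.94 in HF controls, although both were labelled untreated, of 1 strain and 3 days old. Its second probe set had 10.60, 10.53 and 10.85 in HF-HQ controls, against 3.23, 3.27 and 3.23 in HF controls. No array overlapped. On the deposited scale the HF-HQ controls lay near the 11-day controls, while after quantile normalization the leading probe set averaged 10.05 in HF-HQ controls, 12.47 in 11-day HF controls and 5.30 in 3-day HF controls. The differences were 6.38 ± 0.05 and 7.42 ± 0.13 as deposited (SE, n = 3 each). After quantile normalization they were 4.75 ± 0.06 and 6.09 ± 0.13, which ranked 127 and 25 of 11102 in size. In percentiles within the array, the leading probe set averaged 90.0 in HF-HQ controls, against 58.6 in HF controls.

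The peptide gene abf-2 differed from cht-1 in this comparison. It had log2 levels of 5.07, 4.91 and 4.88 in HF-HQ controls, against 2.90, 2.90 and 2.89 in HF controls. The groups did not overlap, but HF-HQ controls stayed far below the 10.87 to 10.90 of 11-day controls. The difference between 3-day controls was 2.05 ± 0.08 as deposited, against a median of 1.65 over all tested probe sets, and 1.29 ± 0.07 after quantile normalization, against a median of 0.05. In size it ranked 4269 of 11102 as deposited and 2561 after quantile normalization.

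The differences of abf-5 and cht-3 between untreated 3-day worms changed with the scaling. For abf-5 levels were 5.32, 5.20 and 5.18 in HF-HQ controls, against 4.26, 4.27 and 4.33 in HF controls. The difference of 0.95 ± 0.07 became -0.20 ± 0.07 after quantile normalization and -0.88 after centring of the arrays on their medians. For cht-3 levels were 13.44, 13.27 and 13.35 in HF-HQ controls, against 11.72, 11.76 and 11.76 in HF controls. The difference of 1.61 ± 0.06 became 0.16 ± 0.06 after quantile normalization and -0.22 after centring. No direction can be read for either gene. Of the others, abf-1 had 2.51 to 2.52 in HF-HQ controls, against 2.61 to 2.90 in HF controls, and abf-3 had 3.46 to 3.49 in HF-HQ controls, against 3.06 to 3.09 in HF controls.

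All 5 tested member probe sets were called in this comparison, each higher in HF-HQ controls, where limma called 96.6% of all in either direction and 89.9% as higher. Nearly all probe sets thus passed, and the count says nothing about the members. After quantile normalization 52.4% of all calls were higher, against 93.0% as deposited.

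**Figure D2:**
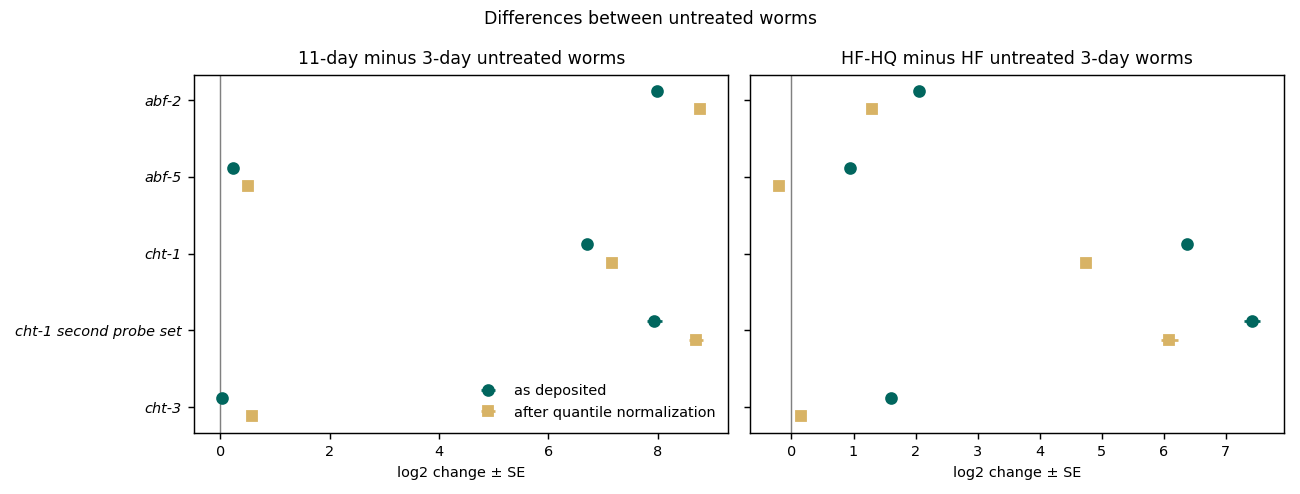
Log2 difference ± SE (x axis) of the 5 tested member probe sets between untreated 11-day and 3-day worms (left) and between untreated 3-day worms of the HF-HQ and HF experiments (right), as deposited (circles) and after quantile normalization (squares). Both probe sets of cht-1 lie between 4.75 and 8.70 in both panels on both scales, abf-2 lies at 7.98 and 8.78 with age and at 2.05 and 1.29 between experiments, and abf-5 changes sign between scales in the right panel.

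Germ line markers moved beside these differences. Called probe sets made up 79.1% of all tested with age and 96.6% in HF-HQ against HF controls, 89.9% as higher. All 8 tested sperm markers fell in untreated 11-day against 3-day worms (median -4.91), and the log2 summed sperm marker signal after quantile normalization was 9.43 to 9.51 at 11 days, against 14.70 to 14.77 at 3 days. All 8 also fell in HF-HQ against HF controls (median -3.40), where the summed signal was 9.68 to 10.21, against 14.70 to 14.77. The sperm marker spe-9 was over log2 5 on no array. For oocyte and embryo markers the summed signal was at least 15.97 in 11-day controls and at least 16.12 in HF-HQ controls, against at most 15.41 in HF 3-day controls. As deposited, 3 of these 12 genes rose and 4 fell with age (median -0.01), while 9 rose and 0 fell after quantile normalization, so their direction with age depended on the scaling. Of the same genes, 12 rose in HF-HQ against HF controls, or 10 rose and 1 fell after quantile normalization. Their part in the results on abf-2 and cht-1 was not tested. In whole worms, fewer cells of a type and less RNA per cell cannot be told apart. These groups also belong to different experiments, whose arrays were probably not normalized together. Any effects of harvest, array handling or normalization cannot be told apart from age or from the experiment.

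Markers of the pharynx were too weak in the HF experiments to show a change with age, since none was over log2 5 on all arrays of either control group. Their summed signal was 6.47 to 6.60 at 11 days, against 6.59 to 6.78 at 3 days. The 5 tested ones passed the filter only through HF-HQ arrays, and in HF-HQ against HF controls all 5 rose (median 3.97, or 3.04 after quantile normalization), with a summed signal of 8.30 to 8.37 in HF-HQ controls, against 6.59 to 6.78 in HF controls. All 6 tested body wall muscle markers rose there too (median 3.58, or 2.25 after quantile normalization), with a summed signal of 14.10 to 14.12 in HF-HQ controls, against 12.55 to 12.59 in HF controls. With age 5 of these 6 fell, or 4 after quantile normalization. As deposited, 89.9% of all tested probe sets were called higher in HF-HQ against HF controls, and 79.1% were called either way with age. The part of these markers in the difference of cht-1 was not tested. Intestinal markers fell with age in 8 of 11 cases and rose in 3 (median -1.56). In HF-HQ against HF controls, intestinal markers rose in 9 of 11 cases as deposited but in 2 after quantile normalization, with 8 down.

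**Figure D3:**
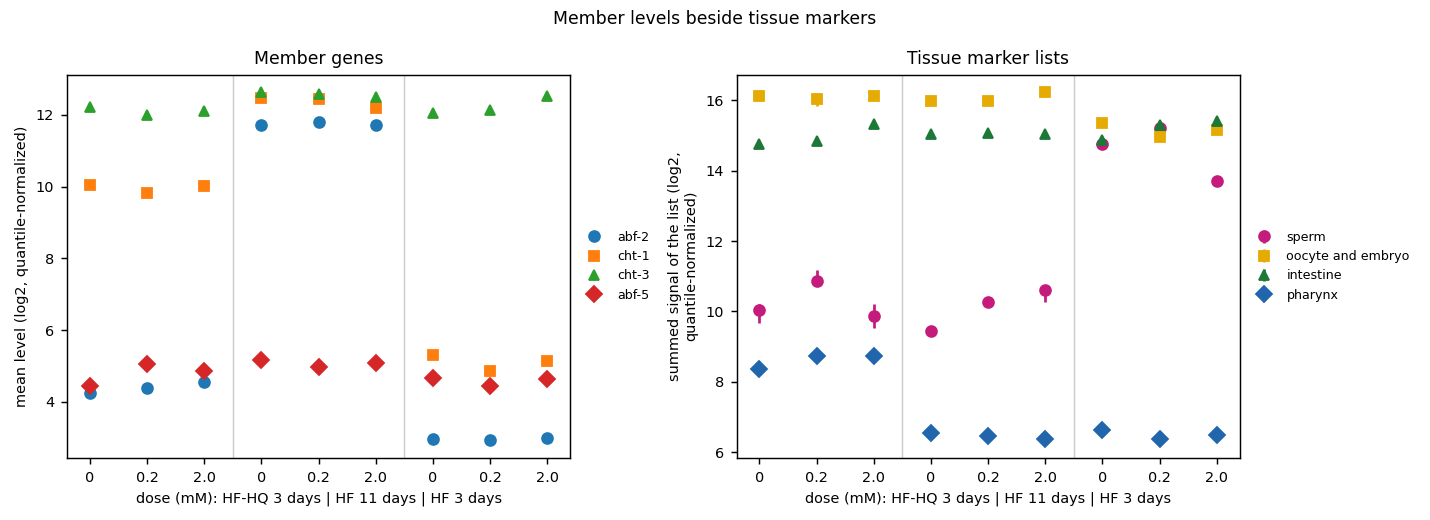
Mean log2 level of 4 members after quantile normalization (left) and log2 summed signal of 4 marker lists after quantile normalization (right, median and range of 3 arrays), both by dose in mM for HF-HQ at 3 days, HF at 11 days and HF at 3 days. Sperm markers are high (13.61 to 15.21) in the HF 3-day groups, where cht-1 averages 4.85 to 5.30, and pharynx markers are highest (8.30 to 8.95) in the HF-HQ groups.

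Other defence genes also differed between these untreated worms. Of 24 listed genes of other antimicrobial peptides 13 were tested, and of these 9 rose and 3 fell with age (median 2.28, against -0.24 for all tested probe sets, of which 79.1% were called). The caenacin gene cnc-7 was at 11.12 ± 0.07 in 11-day controls, against 5.10 ± 0.11 in 3-day controls (SD, n = 3), and cnc-4 was at 8.64 ± 0.11, against 3.11 ± 0.20. Between HF-HQ and HF controls 12 rose and 0 fell as deposited, or 10 rose and 1 fell after quantile normalization (median 0.96, against 0.05 for all). As 89.9% of all probe sets were called higher as deposited, the first count is close to that of any probe sets. There cnc-7 was at 9.10 ± 0.14 in HF-HQ controls, against 5.10 ± 0.11 in HF controls. Lysozyme and caenopore genes, which encode wall-cleaving and pore-forming proteins, rose in 7 and fell in 16 of 23 tested cases with age. After quantile normalization 9 rose and 11 fell. The lysozyme gene lys-7 rose by 5.67 ± 0.07 and lys-6 fell by 5.14 ± 0.11 with age (SE, n = 3 each).

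Other chitinase and chitinase-like genes were barely detected. Of 32 listed, 29 had a probe set of their own and 2 were tested, and 26 were not over log2 5 on any array, among them cht-2, cht-4, cht-5 and cht-6. Both tested genes rose with age, chil-22 by 0.47 ± 0.18 and chil-10 by 0.23 ± 0.08. Only 1 was called without array 1 or 3 of the 3-day controls, without array 2 or 3 of the 11-day controls, or with only the arrays of this comparison in the fit. Of 10 tested genes of chitin synthesis, chitin binding and hexosaminidases 3 rose and 5 fell with age, or 7 rose and 0 fell after quantile normalization. The hexosaminidase gene hex-1, whose product removes terminal sugars, was at 9.95 ± 0.08 in 11-day controls, against 7.36 ± 0.08 in 3-day controls. Of 20 tested immune signalling genes 3 rose and 9 fell with age (6 and 6 after quantile normalization), a smaller share than the 79.1% of all probe sets called. The adaptor gene tir-1, which acts upstream of the p38 kinase PMK-1, rose by 2.86 ± 0.19 and the receptor gene fshr-1 fell by 2.00 ± 0.08.

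Within the HF experiment at 3 days, cht-3 was higher with dose. Its log2 levels were 11.89, 11.94 and 11.94 with 0.2 mM HF, against 11.72, 11.76 and 11.76 in controls. With 2.0 mM HF they were 12.31, 12.20 and 12.37. The 3 doses did not overlap, and the order of levels followed the dose. The differences from controls were 0.17 ± 0.06 at 0.2 mM and 0.54 ± 0.06 at 2.0 mM (SE, n = 3 each), or 0.08 and 0.47 after quantile normalization, where the difference at 0.2 mM was not called.

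The gene cht-1 stayed low at every dose in this experiment. Its leading probe set had 4.49, 4.53 and 4.52 with 0.2 mM HF, against 4.74, 4.91 and 4.94 in controls, a difference of -0.35 ± 0.05. With 2.0 mM HF all 3 arrays lay at 4.73, a difference of -0.13 ± 0.05 from controls. Its second probe set differed from controls by -0.05 ± 0.13 and -0.01 ± 0.13, and all of its values in HF 3-day worms lay between 3.11 and 3.27. The SDs of these groups were only 0.00 to 0.06. The shared SE of 0.13 mainly reflects other groups, such as 0.2 mM HF-HQ with an SD of 0.42. All levels of cht-1 in the HF 3-day experiment were below log2 5, where both probe sets say little about the transcript.

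All 4 abf probe sets were below log2 5 on every HF 3-day array, where small differences say little about the transcripts. For abf-2 the differences from controls were -0.03 and 0.03 (SE 0.08 each), for abf-5 -0.09 and 0.00 (SE 0.07 each), for abf-1 0.00 and -0.13, and for abf-3 -0.05 and 0.07. In the fit across all probe sets 2 of 5 member probe sets were called at 0.2 mM, where 58.9% of all were called, and 2 of 5 at 2.0 mM, where 60.9% were called. These were cht-1 by its leading probe set (lower) and cht-3 (higher) at both doses. The call of cht-3 at 0.2 mM was lost without control array 1 (0.16 ± 0.07). That of cht-1 at 2.0 mM was lost without control array 2 or 3 or any of the treated arrays (-0.13 to -0.09). Between 2.0 and 0.2 mM cht-3 differed by 0.37 ± 0.06 and cht-1 by 0.22 ± 0.05, the 2 members called, both higher, where 21% of all were called and 13.4% as higher.

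Among listed genes at 3 days with HF, other antimicrobial peptide genes rose in 8 of 13 cases and fell in 1 at 0.2 mM, and rose in 9 and fell in 0 at 2.0 mM. Of all tested probe sets 58.9% were called at 0.2 mM and 60.9% at 2.0 mM. The gene cnc-7 was at 6.06 ± 0.02 with 0.2 mM and 7.11 ± 0.12 with 2.0 mM, against 5.10 ± 0.11 in controls (SD, n = 3). Genes of chitin synthesis, chitin binding and hexosaminidases fell in 7 of 10 cases at both doses, and rose in 2 at 0.2 mM and 3 at 2.0 mM. Here chs-1, which encodes the chitin synthase of the eggshell, fell by 0.73 ± 0.07 at 0.2 mM, and hex-1 rose by 1.24 ± 0.10 at 2.0 mM (SE, n = 3 each). Sperm markers rose in 8 of 8 cases at 0.2 mM (median 0.67) and fell in 8 of 8 at 2.0 mM (median -1.18), and oocyte and embryo markers fell in 10 of 12 at both doses. Intestinal markers rose in 9 of 11 cases at 0.2 mM and in 10 at 2.0 mM, and body wall muscle markers in 5 and 4 of 6. Their part in the differences of cht-3 was not tested.

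At 11 days with HF, the high levels of abf-2 and cht-1 differed little by dose. For abf-2 they were 10.93, 10.96 and 10.94 with 0.2 mM, against 10.90, 10.87 and 10.87 in controls, and with 2.0 mM they were 10.76, 10.81 and 10.87. The 0.2 mM arrays lay just above all controls and the 2.0 mM arrays overlapped with them. The differences from controls were 0.06 and -0.07 (SE 0.08 each). For cht-1 the leading probe set had 11.52, 11.66 and 11.57 with 0.2 mM, and with 2.0 mM 11.31, 11.25 and 11.31, against 11.52, 11.57 and 11.64 in controls. At 2.0 mM all arrays lay below all controls, by -0.29 ± 0.05, and the second probe set differed by -0.31 ± 0.13, with no overlap either. At 0.2 mM the 2 probe sets differed from controls by 0.01 and 0.02.

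The gene cht-3 was lower with 2.0 mM HF than in controls at 11 days, as deposited. Its levels were 11.67, 11.77 and 11.64 with 0.2 mM, against 11.74, 11.82 and 11.77 in controls, and 11.67, 11.52 and 11.54 with 2.0 mM. Only the 2.0 mM arrays lay below all controls, with differences of -0.08 ± 0.06 at 0.2 mM and -0.20 ± 0.06 at 2.0 mM (SE, n = 3 each). For abf-5 the differences were -0.07 and -0.12, with all values under log2 5. The probe sets of abf-1 and abf-3 also stayed under it, with 3.87 to 4.22 and 2.91 to 3.22 over the 9 arrays.

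Limma called 0 of 5 member probe sets at 0.2 mM and 11 days, where 4% of all were called. Without adjustment none of the 5 had p under 0.05 in this fit either, against 1456 of all 11102 tested probe sets. With only 5 probe sets, such a count cannot show that the members did not respond. At 2.0 mM it called 2 of 5, cht-1 by its leading probe set and cht-3, both lower, where 28.3% of all were called and 14.8% as lower. The call of cht-3 was lost without control array 2 (-0.18 ± 0.07) or treated array 2 (-0.17) or 3 (-0.18). After quantile normalization cht-3 differed by -0.14 and was not called. Between 2.0 and 0.2 mM, cht-1 was called by its leading probe set (-0.29 ± 0.05), where 30.5% of all were called and 18.3% as lower. Oocyte and embryo markers rose in 9 of 12 cases at 2.0 mM and body wall muscle markers in 4 of 6. Sperm markers rose in 4 of 8 cases at both doses, with a summed signal of 10.25 to 10.33 with 0.2 mM and 10.26 to 10.71 with 2.0 mM, against 9.43 to 9.51 in controls. The part of these markers in the differences of cht-1 and cht-3 was not tested. Other antimicrobial peptide genes rose in 3 and fell in 0 of 13 cases at 0.2 mM, with 0.50 ± 0.07 for cnc-2. At 2.0 mM 1 rose and 6 fell, with a fall to 5.30 ± 0.32 for cnc-6, against 6.15 ± 0.16 in controls (SD, n = 3).

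With HF-HQ at 3 days, the peptide genes abf-5 and abf-2 were higher than in controls. For abf-5 the log2 levels were 6.07, 6.12 and 5.94 with 0.2 mM HF-HQ, against 5.32, 5.20 and 5.18 in controls, and 6.04, 5.83 and 5.81 with 2.0 mM. Both doses lay above all controls and overlapped with each other. The differences from controls were 0.81 ± 0.07 and 0.66 ± 0.07 (SE, n = 3 each), or 0.61 and 0.43 after quantile normalization. For abf-2 the levels were 4.97, 5.36 and 5.06 with 0.2 mM, against 5.07, 4.91 and 4.88 in controls, and 5.56, 5.53 and 5.30 with 2.0 mM. Only the 2.0 mM arrays lay above all controls, by 0.51 ± 0.08 (0.31 after quantile normalization), while the difference at 0.2 mM was 0.18 ± 0.08. Both genes were near log2 5 throughout, and abf-1 (2.44 to 2.52) and abf-3 (3.35 to 3.49) stayed below it.

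The chitinase gene cht-1 was lowest at the lower dose of HF-HQ. Its leading probe set had 11.07, 10.96 and 11.03 with 0.2 mM, against 11.31, 11.22 and 11.21 in controls, and 11.20, 11.22 and 11.20 with 2.0 mM. Its second probe set had 10.33, 9.49 and 10.01 with 0.2 mM, against 10.60, 10.53 and 10.85 in controls, and 10.99, 10.75 and 10.67 with 2.0 mM. At 0.2 mM both probe sets lay below all controls, but they gave different sizes, -0.23 ± 0.05 and -0.72 ± 0.13 (SE, n = 3 each). Array 2 of this group lay lowest on both probe sets. At 2.0 mM the differences were -0.04 ± 0.05 and 0.14 ± 0.13. For cht-3 the levels were 13.15, 13.07 and 13.27 with 0.2 mM, and 13.26, 13.27 and 13.28 with 2.0 mM, against 13.44, 13.27 and 13.35 in controls. The groups overlapped, with differences of -0.19 ± 0.06 and -0.09 ± 0.06.

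In this experiment limma called 4 of 5 member probe sets at 0.2 mM, abf-5 higher and both of cht-1 and that of cht-3 lower, where 30.2% of all were called. The count was 1 with only the arrays of the comparison in the fit. At 2.0 mM it called 2 of 5, abf-5 and abf-2, both higher, where 23.5% of all were called and 13.2% as higher. The call of cht-3 at 0.2 mM was lost without control array 1 (-0.14) or 3 (-0.19) or treated array 2 (-0.14). Without treated array 1, abf-2 was also called at 0.2 mM (0.26 ± 0.08). Between 2.0 and 0.2 mM 3 of 5 were called higher, abf-2 (0.34), and both of cht-1 (0.19 and 0.86), where 33.2% of all were called and 17.5% as higher. After quantile normalization abf-2 differed by 0.17 and was not called. The leading probe set of cht-1 lost its call without array 2 with 0.2 mM (0.16 ± 0.06), and abf-5 was called lower without array 1 with 2.0 mM (-0.22 ± 0.07).

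Listed genes of other defences also changed with HF-HQ. Lysozyme and caenopore genes rose in 16 of 23 cases and fell in 1 at 2.0 mM, with lys-10 at 11.26 ± 0.14 with 2.0 mM, against 3.36 ± 0.06 in controls, and ilys-3 at 10.21 ± 0.09, against 3.16 ± 0.08 (SD, n = 3). At 0.2 mM 11 rose and 0 fell, or 7 changed with only the arrays of this comparison in the fit. Other antimicrobial peptide genes rose in 3 and fell in 0 of 13 cases at 0.2 mM (0 changed with only those arrays), and rose in 6 and fell in 4 at 2.0 mM, with 1.30 ± 0.16 for cnc-4. Of all tested probe sets 30.2% were called at 0.2 mM and 23.5% at 2.0 mM. The count of these peptide genes at 0.2 mM is thus not above that of any probe sets. Of 20 immune signalling genes 7 rose and 1 fell at 2.0 mM, with 1.96 ± 0.12 for ikb-1, an inhibitor gene of the NF-kappaB type, and 1.77 ± 0.09 for pqm-1, a transcription factor gene. Without array 1 of this dose 5 of the 20 were called. Intestinal markers rose in 9 of 11 cases at 2.0 mM, and sperm markers in 4 of 8 at 0.2 mM. Pharynx markers rose in 4 of 5 tested cases at both doses, or in 3 at 2.0 mM after quantile normalization (medians 0.46 and 0.50 as deposited), with a summed signal of 8.64 to 8.95 with 0.2 mM and 8.60 to 8.84 with 2.0 mM, against 8.30 to 8.37 in controls. Their part in the differences of abf-5 and abf-2 was not tested.

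**Figure D4:**
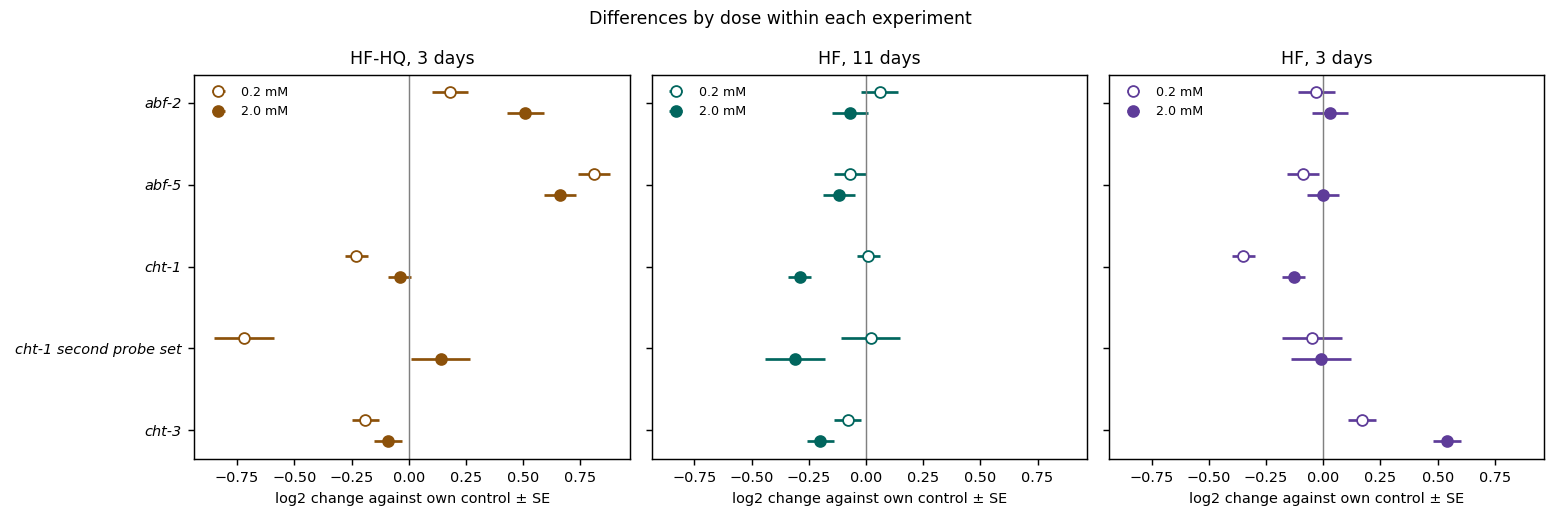
Log2 difference ± SE (x axis, 3 arrays per group) of the 5 tested member probe sets from the controls of the same experiment, at 0.2 mM (open) and 2.0 mM (filled), for HF-HQ at 3 days, HF at 11 days and HF at 3 days. The differences of abf-5 stand at 0.81 and 0.66 with HF-HQ and near 0 with HF, while those of cht-3 are 0.17 and 0.54 with HF at 3 days and below 0 in the other panels.

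Responses were then set side by side. They are made of the dose changes by which the genes were chosen, so the differences between them are descriptions too. The response of abf-5 with HF-HQ exceeded that with HF at 3 days by 0.90 ± 0.10 at 0.2 mM and by 0.65 ± 0.10 at 2.0 mM (SE), and that of abf-2 by 0.48 ± 0.11 at 2.0 mM. Both genes were under log2 5 on all 9 HF 3-day arrays, where a response could hardly have been seen, so these values mainly restate the changes with HF-HQ. The response of cht-3, which was over log2 5 on all arrays, was smaller with HF-HQ than with HF, by -0.36 ± 0.09 at 0.2 mM and -0.63 ± 0.09 at 2.0 mM. The probe sets of cht-1 disagreed at 0.2 mM, with 0.13 ± 0.08 for the leading one and -0.67 ± 0.18 for the second. In these comparisons 3 of 5 member probe sets passed at each dose, where 40.2% and 48.2% of all passed. At 0.2 mM the leading probe set of cht-1 also passed without array 1 of the HF controls (0.19), and abf-2 without array 1 of worms with 0.2 mM HF-HQ (0.29).

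For cht-3 the 11-day minus 3-day responses to HF were -0.26 ± 0.09 at 0.2 mM, or -0.15 after quantile normalization, and -0.74 ± 0.09 at 2.0 mM, or -0.61. At 2.0 mM all treated 11-day arrays lay below their controls and all treated 3-day arrays above theirs. For cht-1 the difference at 0.2 mM was 0.36 ± 0.08 on the leading probe set and 0.08 ± 0.18 on the second, with all 3-day levels under log2 5. Of 5 member probe sets 2 passed at 0.2 mM and 1 at 2.0 mM, where 42.7% and 62% of all passed, and at 2.0 mM 29.3% as lower. At 0.2 mM cht-3 no longer passed without array 3 of 11-day worms with 0.2 mM (-0.23 ± 0.09), and at 2.0 mM cht-1 passed without array 3 of the 3-day controls (-0.19).

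Over all 9 groups, quantile-normalized levels of abf-2 ordered the experiments as HF at 11 days (11.72 to 11.79), HF-HQ (4.25 to 4.56) and HF at 3 days (2.92 to 2.98), with no overlap between experiments. Within the HF-HQ and the HF 3-day experiment, groups next to each other overlapped, apart from HF 3-day controls and 0.2 mM. For cht-1 the order was HF at 11 days (12.20 to 12.47), HF-HQ (9.83 to 10.05) and HF at 3 days (4.85 to 5.30), again with no overlap between experiments. In 11-day worms 2.0 mM stood below the other doses, and 0.2 mM stood lowest in both 3-day experiments. For cht-3 all group means lay between 12.01 and 12.64, and for abf-5 between 4.44 and 5.16. Neighbouring groups mostly overlapped in both. For abf-3 every group overlapped with the next, between 3.05 and 3.24, while abf-1 lay at 4.43 to 4.53 in HF 11-day groups and at 2.74 or below in all others.

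The genes whose 9 group means were most like those of a member were found by Pearson's r over the 9 groups after quantile normalization. The groups share experiments, and the genes were picked as the highest among 10533 tested probe sets with 1 symbol, so these values only describe the pattern. For abf-2 they were R06C1.6 (r = 0.9995), Y38H6C.16 (0.9994) and ins-2 (0.9993), an insulin-like peptide gene whose means were 8.65 to 9.12 in HF 11-day groups and 2.39 to 3.52 in all others. For cht-1 they were dot-1.1 (0.9989), cav-1 (0.9983), which encodes a caveolin, and fbxb-26 (0.9982), beside 0.9984 for its own second probe set. The means of cav-1 were 12.09 to 12.44 at 11 days, 10.60 to 10.91 with HF-HQ and 7.54 to 7.94 in HF 3-day groups. For cht-3 they were C14H10.2 (0.9735), K07E3.2 (0.9603) and K02D10.4 (0.9412). For abf-5 they were R02D3.8 (0.9768), C42C1.19 (0.9285) and Y52B11A.8 (0.9244). All of these varied little, with means of 9.09 to 9.39 for R02D3.8 and 4.44 to 5.16 for abf-5 itself.

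**Figure D5:**
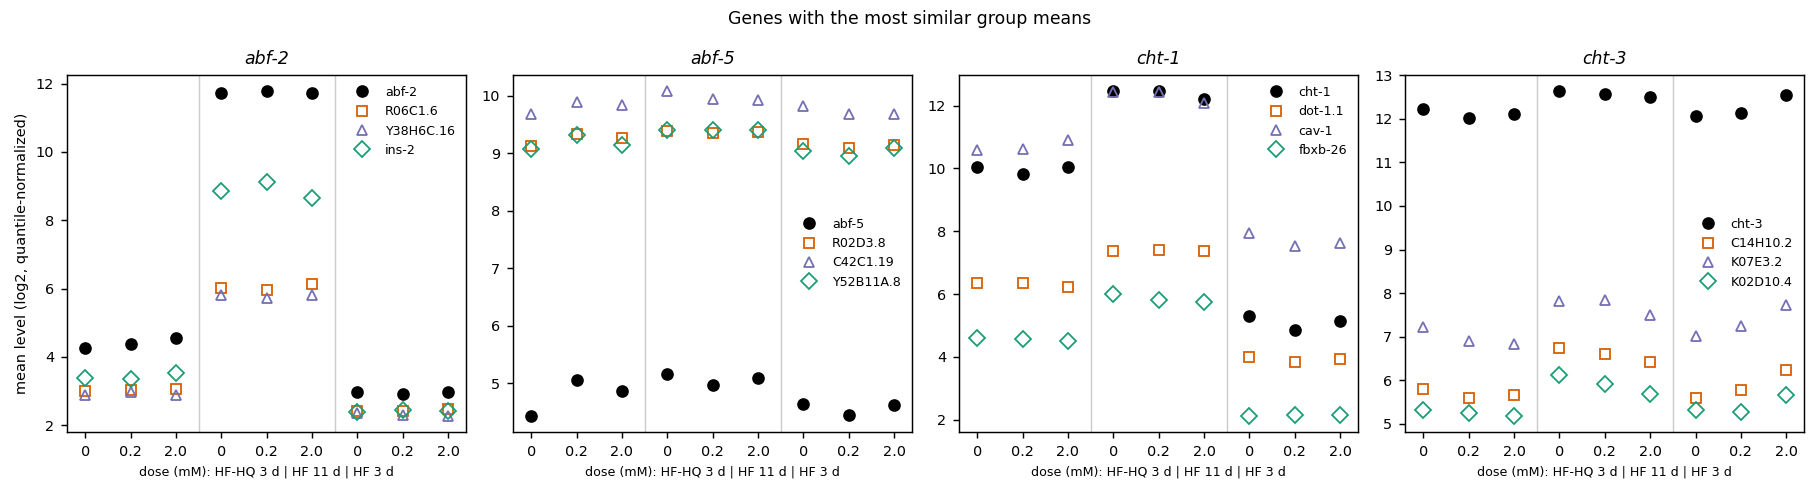
Mean quantile-normalized log2 level (y axis, scaled per panel) of 4 members (filled) and of the 3 genes with the most similar group means (open), by dose in mM for HF-HQ at 3 days, HF at 11 days and HF at 3 days. The ins-2 means follow abf-2, with 8.65 to 9.12 only at 11 days, and the cav-1 means follow cht-1 with 7.54 to 7.94 in the HF 3-day groups.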

How the data were processed

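The authors deposited log2 expression values per probe set of an Affymetrix array, made with GCRMA per the submitters' processing notes, which give no version. GCRMA corrects background, normalizes and summarises probes. Per the labels' protocols, 200 ng of RNA were amplified. After 77 array controls were left out, 22548 probe sets remained, of which 20766 had 1 gene symbol, 887 several and 895 none, and 20701 of the first matched RefSeq by gene ID.

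A model with 1 mean per group was fitted over all 27 arrays with limma 3.58.1 in R 4.3.3. Adjusted p-values are Benjamini-Hochberg over 11102 tested probe sets within each of 15 comparisons, and called means under 0.05. The procedure was tested on simulated data. The number of arrays limits precision.

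Members and lists were chosen with earlier results of these data known, and cht-5 and cht-6 were added to the chitinase list from the annotation. Named were all members, up to 2 called genes per list and comparison with the largest change, and the 3 genes most like each tested member. Where a list gene had several probe sets, the tested one with the highest average was used. Marker lists of hypodermis, body wall muscle, neurons and coelomocytes were also computed. Of those lists' tested genes, 4 of 5, 5 of 6, 2 of 5 and 1 of 1 fell with age, and 2 neuron genes rose. After quantile normalization 4, 4, 2 and 1 fell with age. In HF-HQ against HF controls 3, 6, 5 and 1 rose as deposited and 1, 6, 2 and 0 after quantile normalization. Alternatives were quantile normalization, centring, other filters, a variance trend, a replicate block, fits on fewer arrays and single arrays left out. Same-numbered arrays were not treated as pairs, since 3 of 27 correlations of their deviations were over 0.1 and 16 were negative. The correlations ran from -0.301 to 0.432, so these counts do not show that all arrays were unpaired. Figures were drawn with matplotlib 3.10.9 in Python 3.11.15.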

Additional observations from a re-analysis of the deposited data

Results flagged for a closer look

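Differences between the responses of 2 ages or 2 preparations passed the adjusted threshold of the fit for several members. For the ages 2 of 5 member probe sets passed at 0.2 mM and 1 at 2.0 mM, where 42.7% and 62% of all passed. For the preparations 3 of 5 passed at each dose, where 40.2% and 48.2% of all passed. The genes were chosen on the dose changes that make up these differences, so they are descriptions, with no p-value, and were not tested independently. With 11-day minus 3-day worms, the response of cht-3 to HF differed by -0.26 ± 0.09 at 0.2 mM (-0.15 after quantile normalization, no longer past the threshold) and by -0.74 ± 0.09 at 2.0 mM (SE, 3 arrays per group). That of cht-1 to 0.2 mM differed by 0.36 ± 0.08 on its leading probe set, whose 3-day levels were under log2 5, and by 0.08 on its second.

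With HF-HQ minus HF at 3 days, the response of cht-3 differed by -0.36 ± 0.09 at 0.2 mM and by -0.63 ± 0.09 at 2.0 mM. That of abf-5 differed by 0.90 ± 0.10 and 0.65 ± 0.10, and that of abf-2 by 0.48 ± 0.11 at 2.0 mM, with both genes under log2 5 on every HF 3-day array. The second probe set of cht-1 differed by -0.67 ± 0.18 at 0.2 mM, against 0.13 for its leading one, and both were under log2 5 in the HF 3-day worms.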

How the results depend on the processing

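Of 1080 recomputed log2 differences of members over 15 comparisons, 1030 stayed on their side of the threshold, of which 19 near 0 and not called changed sign at 2 decimals. A further 30 lost the call, 17 gained it and 3 reversed with a call on either side. The reversals were those of untreated HF-HQ against HF worms, for abf-5 with centred arrays (-0.88) and quantile normalization (-0.20) and for cht-3 with centred arrays (-0.22). Counts of called member probe sets that moved by over 1.5 times were the following. For 2.0 mM HF at 3 days the count was 2, and 1 with centred arrays, with the replicate block and with only the arrays of the comparison. For 2.0 mM HF at 11 days it was 2, and 1 after quantile normalization. For 2.0 against 0.2 mM at 11 days it was 1, and 2 with the replicate block and with only its own arrays. For 0.2 mM HF-HQ it was 4, and 1 with only its own arrays, and for 2.0 against 0.2 mM HF-HQ it was 3, and 0 with only its own arrays. For 2.0 mM HF-HQ it was 2, and 1 with the filter at log2 7. For the age difference of responses it was 2 at 0.2 mM, and 1 after quantile normalization, and 1 at 2.0 mM, and 2 with centred arrays and with only its own arrays. With single arrays left out the counts ran from 3 to 4 for age, 1 to 2 for 0.2 and for 2.0 mM HF at 3 days and 2.0 mM at 11 days, 3 to 5 for 0.2 mM HF-HQ, 2 to 4 for 2.0 against 0.2 mM HF-HQ, 1 to 2 for the age difference at each dose, and 3 to 4 for the preparations at 0.2 mM. The replicate block changed no other count by over 1.5 times. Signal under log2 5 limits what abf-1 and abf-3 can show on all arrays, abf-5 on all HF arrays, and abf-2 and cht-1 on the HF 3-day arrays.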
